A study of Mus musculus with 6 samples.

Results

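A set of 10 neural cell adhesion genes, of the 24063 gene symbols in the count tables, was followed across 3 CRISPR guide groups: Ncam1, Cntn1, Cntn2, Nrcam, L1cam, Chl1, Thy1, Cadm1, Ptprd and Ptprs. Each was found by its exact symbol, and all 10 were present. They were selected on their measured counts in Miat and control libraries, with those levels already known: Cntn1, Thy1 and Ptprd were high and Ncam1 low with the Miat guides. Their differences between Miat and control libraries are therefore given as a description, and where the fit's calls in those contrasts are counted, nothing is read from them.

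The libraries came from mouse stem-like medulloblastoma cells, with cerebellum as the labelled tissue. All 3 groups carried Math1-Cre; SmoM2, in which Cre driven from the Math1 (Atoh1) promoter of granule neuron progenitors turns on an active form of Smoothened, the Hedgehog signal transducer. The control group carried the guide sgGal4-4, named for a yeast protein, and was labelled WT. The other groups carried sgMiat-6 or sgMiat-96, were labelled Miat knockdown and target a long noncoding RNA. Each group had 2 libraries, and the labels give no age, time after guide delivery, clone or culture of origin. P-values thus measure the spread between these libraries, which may be technical.

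Adhesion molecules of the immunoglobulin superfamily sit at the cell surface with immunoglobulin-type domains, often followed by fibronectin type III repeats. They bind the same molecule or a different family member on the next cell. Some cross the membrane and reach the cytoskeleton, others are held by a glycosylphosphatidylinositol (GPI) anchor, and the LAR-type receptors join the same outer domains to tyrosine phosphatase domains. In the cerebellum they act in granule cell migration, axon growth and synapse formation.

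Column sums over all transcript rows were 27324587 to 29671461 counts per library, and 18438891 to 19650274 with 1 row per gene. Miat had 140 and 139 counts in the control libraries and 0 in all 4 Miat libraries, so it was at least 178-fold lower when the Miat libraries together are given a floor of 3 counts. Of the labelled cell type's markers, Sox2, Nes, Olig2 and Vim were abundant in every library, Atoh1 was at 0 in all 6 and Prom1 had at most 1 count. The 8 listed neural stem cell markers summed to 4500 to 4660 CPM (counts relative to library size, scaled by TMM) in the control libraries and 6600 to 7910 CPM in the Miat libraries. Of the 7 tested, Vim (log2 difference 1.02), Fabp7 (0.93) and Olig2 (0.45) rose with the Miat guides. Sox9 (-0.72) and Msi1 (-0.44) fell, while Sox2 (0.19) and Nes (0.26) had no adjusted p under 0.05 in edgeR's test. The 12 listed granule progenitor and medulloblastoma markers summed to 1120 to 1170 CPM in control and 2020 to 2550 CPM with the Miat guides, most of it Ccnd1. Of the 10 tested, 6 rose with the Miat guides: Ccnd1 (log2 difference 1.14), Zic1 (1.09), Zic2 (1.32), Neurod1 (1.71), Pax6 (0.36) and Sfrp1 (6.68, with 0 counts in both controls). The other 4, Hedgehog pathway genes and Mycn, fell (-2.88 for Gli1, -2.21 for Gli2, -2.38 for Ptch1 and -2.40 for Mycn). Astrocyte markers (8 listed, Gja1 at 0 in all libraries) summed to 2840 to 2930 CPM in the control libraries and 660 to 838 CPM in the Miat libraries. Neuron markers (10 listed, Syt1, Stmn2 and Gabra6 at 0 in all) summed to 745 to 747 CPM in control, nearly all of it Map2, and 292 to 499 CPM with the Miat guides. Oligodendrocyte markers (7 listed, Mag at 0 in all) summed to 122 to 142 CPM in control and 40.0 to 49.8 CPM with the Miat guides. Microglial, endothelial, fibroblast and blood cell lists summed to at most 9.84 CPM in any library. These levels moved with the groups in which the adhesion genes differ, and their part in the values below was not tested. In bulk RNA, fewer cells of a type and less RNA per cell cannot be told apart.

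**Figure D1:**
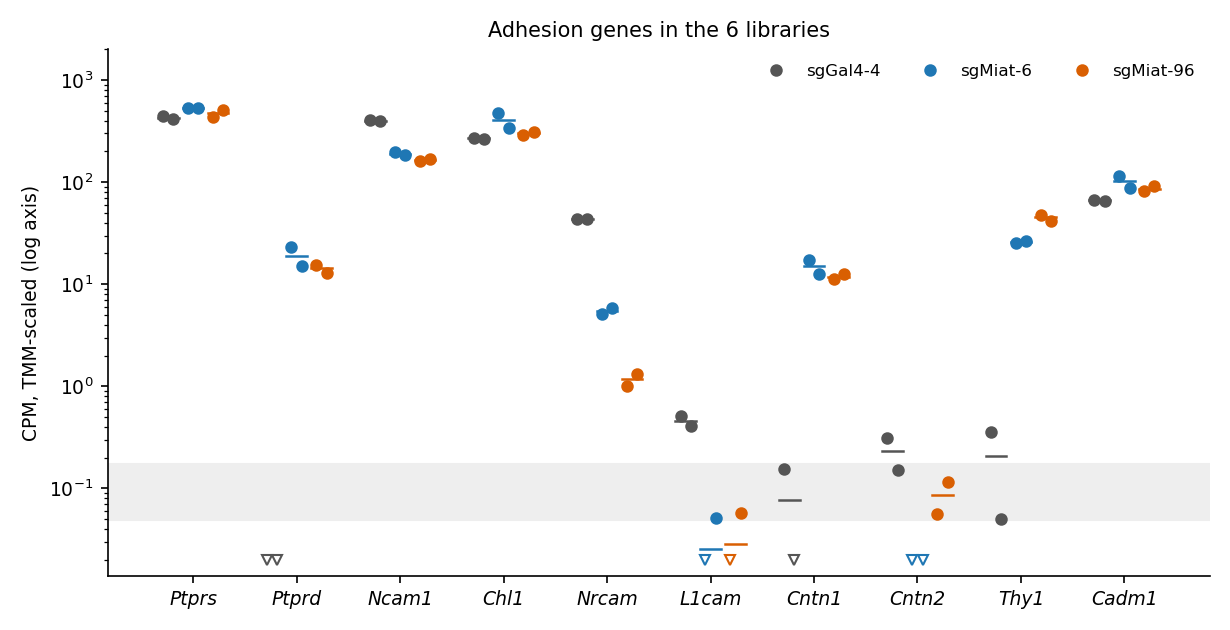
Level of each adhesion gene in the 6 libraries (CPM, log axis). Points are libraries, short lines are group means, open triangles at the foot are libraries with 0 counts, and the grey band marks the level of about 1 to 3 counts. Ptprd, Cntn1 and Thy1 stand at or near the band in the control libraries and between 11.3 and 48.1 CPM in the Miat libraries, while Ncam1 and Nrcam stand lower in every Miat library than in both controls.

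Ncam1 encodes the neural cell adhesion molecule, which binds itself on neighbouring cells and can carry polysialic acid that weakens this grip. It lies on the minus strand at chr9:49502136-49798925 (GRCm38, as for all positions here). Its levels were 405 and 396 CPM in the control libraries, 197 and 183 CPM under sgMiat-6, and 162 and 168 CPM under sgMiat-96. Every Miat library was below both controls, and every sgMiat-96 library was below both sgMiat-6 libraries. The log2 difference of the Miat guides from control was -1.18 ± 0.08 (SE), or 2.26-fold lower. The row used (NM_001113204) is 6985 bp long, and long transcripts were lower as a class with these guides: among the 2066 tested genes with rows of 5000 to 10000 bp, the median log2 difference was -0.49, against 0.00 for all 13220 tested genes. With the length trend taken out, Ncam1's log2 difference was -0.66.

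The gene makes forms that share their outer part and differ at the membrane: NCAM-120 ends in a GPI anchor, NCAM-140 crosses the membrane, and NCAM-180 adds a long cytoplasmic exon. The exon joins that separate them are shown because the deposited rows of these forms differed between groups. Each line has 20 bases of the shared exon in lower case and the first 20 bases of the next exon in capitals, from GENCODE M21 transcripts.
NCAM-120 end, exon chr9:49517278-49517582: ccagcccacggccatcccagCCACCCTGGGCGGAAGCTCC
NCAM-140 and NCAM-180 transmembrane exon, chr9:49509705-49509912: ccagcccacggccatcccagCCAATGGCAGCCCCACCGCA
NCAM-140 last exon, chr9:49502136-49505563: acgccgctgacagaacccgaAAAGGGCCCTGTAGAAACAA
NCAM-180 long exon, chr9:49506853-49507653: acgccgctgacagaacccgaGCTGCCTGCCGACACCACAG

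Rows of one gene carried nearly equal counts, which means that reads common to several forms were listed in each row. Only the difference between rows says anything about a form, and the rule by which reads were assigned to rows is not given in the sources used here. The NCAM-140 row (NM_001081445, 848 codons) exceeded the NCAM-120 row (NM_010875, 725 codons) by 439 and 475 counts in the control libraries. Those differences were 5.61% (95% Wilson interval 5.12 to 6.14) and 6.10% (5.59 to 6.66) of the NCAM-140 row. Each of these rows has sequence of its own, so the excess is a difference between their own reads. The interval treats it as a simple share and is too narrow for it. In sgMiat-96 the excess was 885 and 793 counts, 30.8% (29.1 to 32.5) and 27.3% (25.7 to 28.9). The sgMiat-6 libraries disagreed: replicate 1 had an excess of 219 counts, 5.53% (4.86 to 6.28), its interval overlapping those of both controls, and replicate 2 had 738 counts, 20.6% (19.3 to 22.0). So 3 of 4 Miat libraries had a larger excess of the membrane-spanning row's own sequence over that of the GPI row than either control, and 1 did not. In these 3 libraries the excess was also larger in absolute counts, although total Ncam1 was lower. The 885, 793 and 738 counts exceeded the 439 and 475 counts of the control libraries.

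The long cytoplasmic exon of NCAM-180, the form associated with differentiated neurons, had few reads anywhere. The NCAM-180 row exceeded the NCAM-140 row by 28 and 31 counts in the control libraries, 0.357% (0.247 to 0.515) and 0.397% (0.280 to 0.563) of the row. The excess was 1 and 1 count with sgMiat-6 and 2 and 6 counts with sgMiat-96, at most 0.206% (0.0944 to 0.448). All 4 Miat libraries lay below both controls. The interval of the highest, sgMiat-96 replicate 2, overlapped those of both controls. That of sgMiat-96 replicate 1 (0.0191 to 0.253) overlapped that of control replicate 1. These intervals cover counting error only, not all of it for NCAM-140 over NCAM-120, and no group test was made on 2 libraries a group.

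An antisense gene, Gm11149 (chr9:49518288-49572591, plus strand), lies within Ncam1, and 263 of the 1275 exon bases of its row (20.6%) are also Ncam1 exon. Its counts were 1668 and 1787 in control, 879 and 632 with sgMiat-6, and 322 and 437 with sgMiat-96. It fell with the Miat guides (log2 difference -1.62 ± 0.14, adjusted p = 4.14e-07, edgeR quasi-likelihood test with Benjamini-Hochberg adjustment). The strand setting of the counting is not given in the sources used here, so reads of Ncam1 and Gm11149 over the shared bases cannot be told apart.

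**Figure D2:**
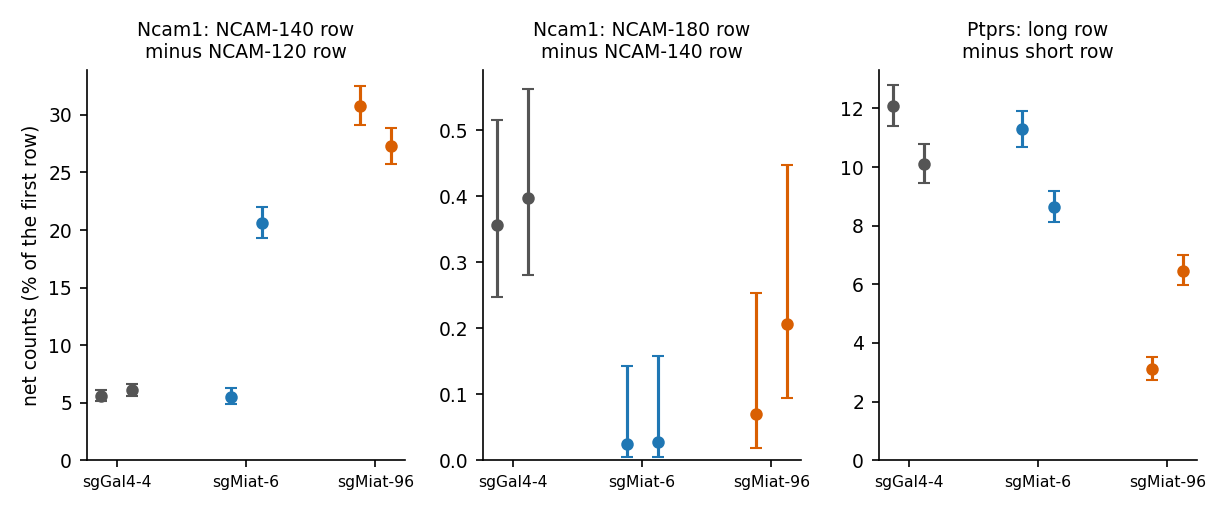
Excess of one transcript row over another of the same gene, as a percentage of the first row's counts in each library, with 95% Wilson intervals for counting error. These are too narrow for NCAM-140 over NCAM-120, where each row has sequence of its own. From left, NCAM-140 over NCAM-120, NCAM-180 over NCAM-140, and the long over the short Ptprs row; each panel has its own axis starting at 0. In the left panel sgMiat-6 replicate 1 (5.53%) lies with the controls, while the other Miat libraries lie between 20.6% and 30.8%.

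Nrcam, Chl1 and L1cam belong to the L1 family, whose members cross the membrane once and bind ankyrins on the inside. The first of them differed in the opposite direction to the second. Nrcam (NM_176930, chr12:44328885-44601964, plus strand), which takes part in axon guidance and in building nodes of Ranvier, had 844 and 860 counts in control, 104 and 114 with sgMiat-6, and 18 and 23 with sgMiat-96. In CPM this was 43.5 ± 0.0660, 5.49 ± 0.468 and 1.17 ± 0.223 (mean ± SD, n = 2 each), and the 3 groups did not overlap. The log2 difference from control was -2.99 ± 0.16 with sgMiat-6 and -5.21 ± 0.20 with sgMiat-96, which is 7.93-fold and 37.1-fold lower. It kept its direction with the length trend removed (-3.53 for both guides together).

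Chl1 (close homologue of L1, NM_007697, chr6:103510586-103750211, plus strand) promotes neurite growth and cell migration. Its levels were 271 and 264 CPM in control, 470 and 335 CPM under sgMiat-6, and 290 and 310 CPM under sgMiat-96. All Miat libraries were above both controls, and sgMiat-6 replicate 1 stood well above the rest. The log2 difference was 0.59 ± 0.14 for sgMiat-6 and 0.17 ± 0.14 for sgMiat-96. With scaling by total counts only, which shifts the median of all genes by -0.20 for sgMiat-96 against control, the value for sgMiat-96 was -0.04, while removing the length trend gave 0.98. The direction for sgMiat-96 thus depends on the scaling.

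L1cam (NM_008478, chrX:73853778-73896105, minus strand) is the founder of the family and guides growing axons. It was nearly absent throughout: 10 and 8 counts in control, 0 and 1 with sgMiat-6, and 0 and 1 with sgMiat-96. The control libraries were above all Miat libraries, by a count ratio of 17.2 (95% Clopper-Pearson interval 4.12 to 153, counting error only). L1cam overlaps Arhgap4, which had 9 to 28 counts per library. L1cam did not pass the filter on low counts and has no fitted value.

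The promoters of Nrcam and Chl1 are shown because these relatives stood in opposite directions, and that of Cntn1, described next, because it went from almost no reads to 201 or more in each library. Each line is the 250 bases before the annotated start, 5′ to 3′ on the gene's strand, from RefSeq (GRCm38.p6). Capitals mark the letters of a searched motif. Promoter windows were matched for 6 of the 10 genes (Cntn1, Cntn2, Nrcam, L1cam, Chl1 and Ptprs); Ncam1, Thy1, Cadm1 and Ptprd had none.
Nrcam, chr12:44328635-44328884: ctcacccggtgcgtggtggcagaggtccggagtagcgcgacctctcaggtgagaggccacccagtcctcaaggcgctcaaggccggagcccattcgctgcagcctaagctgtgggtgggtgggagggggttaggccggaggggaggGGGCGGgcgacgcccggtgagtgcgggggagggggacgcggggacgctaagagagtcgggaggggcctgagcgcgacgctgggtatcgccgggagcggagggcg
Chl1, chr6:103510626-103510875: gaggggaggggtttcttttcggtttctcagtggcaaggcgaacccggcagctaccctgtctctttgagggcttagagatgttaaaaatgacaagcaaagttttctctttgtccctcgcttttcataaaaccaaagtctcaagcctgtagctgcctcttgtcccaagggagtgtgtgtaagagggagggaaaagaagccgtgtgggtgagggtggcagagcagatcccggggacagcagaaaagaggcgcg
Cntn1, first of 3 starts, chr15:92050915-92051164: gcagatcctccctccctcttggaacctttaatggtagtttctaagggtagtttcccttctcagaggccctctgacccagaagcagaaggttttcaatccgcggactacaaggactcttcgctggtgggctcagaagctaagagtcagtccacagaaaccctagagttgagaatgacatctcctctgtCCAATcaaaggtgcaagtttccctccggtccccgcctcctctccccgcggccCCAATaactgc

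The Nrcam window was rich in G and C (72.4%, against a median of 52.4% over all 32851 windows) and held GGGCGG, a GC box, which 32.7% of all windows hold on either strand. The Chl1 window (52.4% GC) held none of the motifs searched. The window of the first Cntn1 start (53.6% GC) held CCAAT at 2 places, a motif found in 33.8% of windows. That of the third start (43.6% GC) also held 2, and that of the second (32.8% GC) held no CCAAT and 1 TATAAA. Which start was in use was not tested. The other motifs searched on both strands were TATAAA (12.4% of windows), CAGCTG (13.0%), CAGATG (14.4%), GACCACCCA, a Gli site (0.225%), and TGACGTCA (1.55%). No window of the 6 matched genes held CAGCTG, GACCACCCA or TGACGTCA. These matches describe letters and identify no bound factor.

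Contactins are GPI-anchored members that pair with Caspr proteins and with receptor phosphatases. Cntn1 (contactin 1, NM_001159648, chr15:92051165-92341967, plus strand), a ligand of Notch in glial precursors and a partner of sodium channels, had 3 and 0 counts in the control libraries. With sgMiat-6 it had 348 and 249 counts, and with sgMiat-96 201 and 216. No Miat library came near the control range, and the count ratio of Miat to control libraries was 177 (60.3 to 858). By guide the ratio was 196 (66.7 to 953) for sgMiat-6 and 155 (52.7 to 754) for sgMiat-96. The other Cntn1 rows differed from this one by at most 4 counts in any library. Cntn2 (NM_177129, chr1:132509427-132543256, minus strand), also known as TAG-1 and made by young granule cells, stayed at the edge of detection, with 6 and 3 counts in control, 0 and 0 with sgMiat-6, and 1 and 2 with sgMiat-96. Its count ratio of control to Miat libraries was 5.74 (1.43 to 33.0), and it did not pass the filter on low counts.

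Thy1 (NM_009382, chr9:44043384-44048579, plus strand) is a small GPI-anchored protein with a single immunoglobulin domain, abundant on mature neurons and on thymocytes. It had 7 and 1 counts in the control libraries, 509 and 526 with sgMiat-6, and 856 and 727 with sgMiat-96. Both Miat groups were far above control and did not overlap each other. The count ratio of the Miat to the control libraries was 171 (86.7 to 397). The T cell genes Cd3e and Cd3g had at most 1 count in any library. Of the 3 tested neuron markers, 2 rose and 1 fell. Tubb3 had 4 and 3 counts in control and 103 to 163 in the Miat libraries. Nefm had 0 and 1 counts in control, 25 and 28 with sgMiat-6, and 6 and 3 with sgMiat-96. Map2 fell from 745 CPM to 424 and 285 CPM (log2 difference -1.10, adjusted p = 1.72e-06, edgeR). Among those below the filter, Nefl had 0 counts in both controls and 3 to 11 in the Miat libraries, and Snap25 went from 7 and 17 counts to 1 or 2. Rbfox3 and Grin2c had at most 2 counts in any library, and Syt1, Stmn2 and Gabra6 were at 0 in all 6.

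Cadm1 (SynCAM 1, NM_207675, chr9:47530173-47857637, plus strand) links pre- and postsynaptic membranes and also mediates contact between non-neuronal cells. Its levels were 67.0 and 65.2 CPM in control, 115 and 88.2 CPM under sgMiat-6, and 81.5 and 90.9 CPM under sgMiat-96. All 4 Miat libraries exceeded both controls, while the Miat groups overlapped each other. The log2 difference for both guides was 0.50 ± 0.12. Its 4 rows, which differ in short exons of the stalk, never differed by more than 3 counts.

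Ptprd and Ptprs are LAR-type receptor tyrosine phosphatases that organise synapses and respond to heparan and chondroitin sulphate proteoglycans. Ptprd (NM_011211) spans 2270 kb at chr4:75941238-78211961, minus strand. It had 0 counts in both control libraries, 465 and 293 with sgMiat-6, and 277 and 225 with sgMiat-96. The Miat groups overlapped in CPM. With 3 counts as the floor of the control libraries together, Ptprd was at least 220-fold higher with both guides, at least 249-fold with sgMiat-6 and at least 187-fold with sgMiat-96.

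Ptprs (NM_011218, chr17:56412426-56476483, minus strand), its relative, was already high: 441 and 414 CPM in control, 532 and 526 CPM under sgMiat-6, and 434 and 506 CPM under sgMiat-96. The sgMiat-6 libraries were above both controls, and the sgMiat-96 libraries overlapped them. The log2 difference was 0.31 ± 0.11 for sgMiat-6 and 0.14 ± 0.11 for sgMiat-96. With total counts only the value for sgMiat-96 was -0.06 and that for sgMiat-6 was 0.25; with the length trend removed they were 0.85 and 0.61. The direction for sgMiat-96 thus depends on the scaling, and the size on the treatment of length.

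The long form of Ptprs has 4 exons (1218 bp, chr17:56425327-56429157) that the short form (NM_001252453) skips, and long forms of this receptor are known to carry more fibronectin type III repeats outside the cell. The joins of the long and the short form are shown, since the surplus of the long row was lower in one Miat group; capitals again mark the next exon.
Ptprs long form, exon chr17:56428852-56429157: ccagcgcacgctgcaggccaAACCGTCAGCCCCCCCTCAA
Ptprs short form, exon chr17:56424880-56424977: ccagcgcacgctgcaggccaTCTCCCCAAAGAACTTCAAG
The long row (1907 codons) exceeded the short row (1501 codons) by 1036 and 824 counts in control, 12.1% (11.4 to 12.8) and 10.1% (9.46 to 10.8) of the long row. With sgMiat-6 the excess was 1209 and 890 counts, 11.3% (10.7 to 11.9) and 8.63% (8.11 to 9.19), which overlapped the control range. With sgMiat-96 it was 239 and 567 counts, 3.10% (2.73 to 3.51) and 6.46% (5.97 to 7.0). Both sgMiat-96 libraries lay below all other libraries, and they differed from each other by more than counting error. The 2 further short rows of Ptprs tracked NM_001252453 to within 3 counts.

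Compared per length, as CPM per kilobase of the kept row, Ptprs ranked first in all 3 groups, at 62.3 ± 2.87 in control, 77.1 ± 0.574 with sgMiat-6 and 68.6 ± 7.46 with sgMiat-96 (mean ± SD, n = 2). In control it was followed by Ncam1 (57.3 ± 0.881), Chl1 (34.5 ± 0.676), Cadm1 (15.1 ± 0.284) and Nrcam (5.75 ± 0.00871), and these 5 did not overlap. The rest were at or near the level of a few reads: Thy1 (0.119) overlapped L1cam (0.0870), Cntn2 (0.0242) overlapped Cntn1 (0.0136), and Ptprd was at 0. With sgMiat-6, Chl1 (52.0 ± 12.3) was the next after Ptprs. Ncam1 (27.2) overlapped Cadm1 (23.2), Thy1 followed at 15.0, and Cntn1 (2.64) overlapped Ptprd (2.08). With sgMiat-96 the order was Ptprs, Chl1 (38.7), Thy1 (26.0), Ncam1 (23.6) and Cadm1 (19.6), then Cntn1 (2.10), Ptprd (1.56) and Nrcam (0.154), with no overlap between these neighbours. Nrcam thus had rank 5 in control and rank 8 with either Miat guide. Ranks and overlaps that involve Ncam1 or Ptprs hold for the kept rows only. Ncam1 was divided by the 6985 bp of its NCAM-180 row, whose long exon had few reads. The NCAM-140 row has nearly the same counts over 6184 bp, which would place Ncam1 higher relative to Ptprs, Thy1 and Cadm1. Levels per length were not ranked with the shorter rows.

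Summed over the 10 genes with the same kept rows, the level was 175 ± 4.88 CPM per kilobase in control, 200 ± 19.1 in sgMiat-6 cells and 180 ± 8.89 in sgMiat-96 cells (mean ± SD, n = 2). Ptprs, Ncam1 and Chl1 made up 88.0%, 78.2% and 72.5% of this sum. Cntn1, Thy1 and Ptprd together made up 0.0743% ± 0.0811 in control, 9.90% ± 0.678 in sgMiat-6 cells and 16.5% ± 2.24 in sgMiat-96 cells, most of it from Thy1.

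Of the 10 genes, 8 passed the filter on low counts; Cntn2 and L1cam did not. Between both Miat guides and control, 8 of these 8 had an adjusted p under 0.05 (6 higher, 2 lower), where 66.5% of all tested genes did (33.1% higher, 33.4% lower). For sgMiat-6 alone it was 8 of 8, where 53.0% of all tested genes were called (26.9% higher, 26.1% lower), and for sgMiat-96 alone 6 of 8, where 68.2% were (34.0% higher, 34.2% lower). As these contrasts chose the genes, nothing is read from the counts.

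The contrast between the 2 Miat guides was not the one that picked the genes, and it was tested with edgeR's quasi-likelihood test, adjusted by Benjamini-Hochberg over all 13220 genes. It asks whether guides to the same RNA gave the same levels. Nrcam, Chl1 and Thy1 differed, 3 of 8 genes (37.5%; 1 higher and 2 lower with sgMiat-96), where 36.7% of all tested genes did (17.8% higher, 18.8% lower), so the adhesion genes differed between guides about as often as other genes. Nrcam was 4.68-fold lower with sgMiat-96 than with sgMiat-6 (log2 difference -2.23 ± 0.23, adjusted p = 0.000165). It passed the threshold in each alternative fitted for single genes (all but the crossed replicate block, for which only calls were counted), with values between -2.43 and -1.78 and adjusted p between 6.47e-11 and 0.0158. Thy1 was 1.73-fold higher with sgMiat-96 (0.79 ± 0.17, adjusted p = 0.00388). Without sgMiat-96 replicate 1 its value was 0.69 with an adjusted p of 0.0689, no longer past the threshold.

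Chl1 was 1.34-fold lower with sgMiat-96 (-0.43 ± 0.14, adjusted p = 0.0280), and this call was lost without any of 3 single libraries and with the length trend removed. Without sgMiat-6 replicate 1 the log2 difference was -0.16 (adjusted p = 0.292), without sgMiat-96 replicate 1 it was -0.38 (0.180), and without sgMiat-96 replicate 2 it was -0.47 (0.0765). Among genes with rows of 5000 to 10000 bp the median difference between the guides was -0.41, close to that of Chl1. With the length trend removed, Chl1's difference was 0.05 (adjusted p = 0.723), while that of Nrcam was -1.78 (0.000656) and that of Thy1 0.57 (0.0138).

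The other 5 tested genes did not pass the threshold between the guides: Ncam1 at -0.20 ± 0.10 (adjusted p = 0.126), Cadm1 at -0.24 ± 0.13 (0.170), Ptprs at -0.17 ± 0.11 (0.227), Cntn1 at -0.34 ± 0.22 (0.245) and Ptprd at -0.41 ± 0.21 (0.146). These p-values do not show that the guides gave equal levels. All 5 values were below 0, and with the length trend removed only that of Cadm1 stayed so, at -0.02. The rows of the adhesion genes are long: their median is 6922 bp, that of all tested genes is 2844 bp, and 8 of 10 are at least 5000 bp. Thy1, at 1735 bp, is the shortest.

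**Figure D3:**
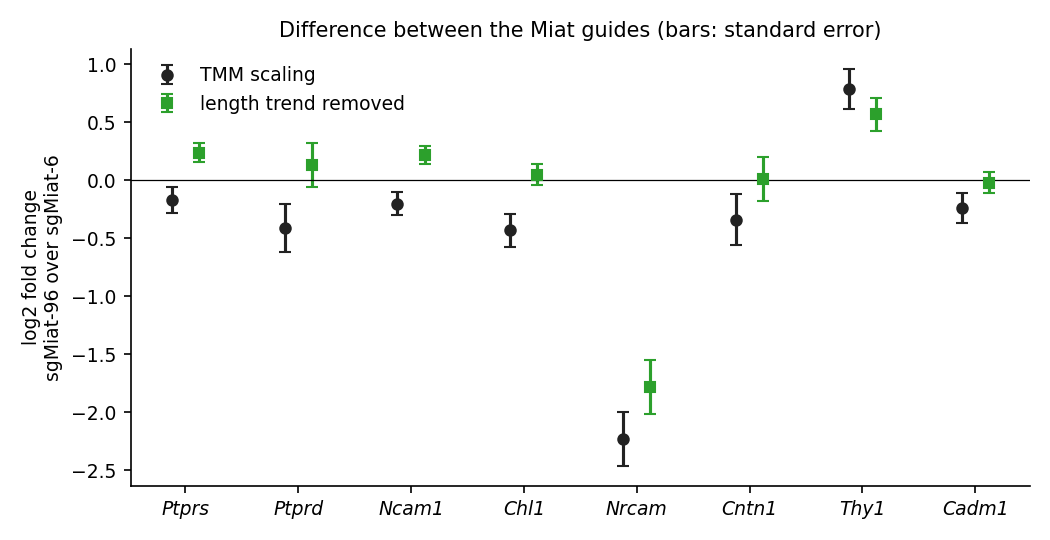
Log2 difference of sgMiat-96 from sgMiat-6 for the 8 adhesion genes that passed the filter on low counts, with TMM scaling (black) and after removal of the transcript length trend (green). Bars are standard errors and the line is at 0. Nrcam (-2.23 and -1.78) and Thy1 (0.79 and 0.57) keep their side of 0 in both, while Chl1 moves from -0.43 to 0.05.

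To set the adhesion genes in their surroundings, 145 other genes in 10 lists of relatives, ligands and cytoplasmic partners were examined, and 118 of them passed the filter on low counts. Of these, 88 (74.6%) changed with the Miat guides at an adjusted p under 0.05, 43 up and 45 down, where 66.5% of all tested genes did. The lists were chosen with earlier results of these data known, so nothing is read from that share or from those of single lists. The median log2 difference of the 118 genes was 0.03, against 0.00 for all tested genes. Removing the length trend moved the split to 56 up and 36 down. Between the 2 guides 44 of the 118 (37.3%) differed, 10 higher and 34 lower with sgMiat-96, beside 36.7% of all tested genes (17.8% higher, 18.8% lower). Genes with rows of 5000 to 10000 bp had a median log2 difference of -0.41 between the guides. The split of the 44 was not counted with the length trend removed, and the part of length in it was not tested. All adjusted p-values in the next paragraphs are from edgeR's quasi-likelihood test with Benjamini-Hochberg adjustment, and the genes named are those with the smallest adjusted p of each list at a mean of at least 2 CPM.

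Among the closest relatives of contactins, L1 and NCAM, 3 of 6 genes were tested, with 1 up and 1 down. Nfasc, an L1 family member that clusters at the axon initial segment, fell from 11.3 to 2.04 CPM in sgMiat-6 cells and 2.00 CPM in sgMiat-96 cells (log2 difference -2.49 ± 0.18, adjusted p = 8.40e-08). The gene that rose, Cntn3, had 0 counts in both controls and 7 to 21 in the Miat libraries (at least 9.59-fold higher); it was below the level at which genes were named and is given because it was the only riser. In the Cadm, nectin and IgLON list 4 rose and 4 fell of 12. Lsamp, a GPI-anchored IgLON of limbic circuits, fell from 27.7 to 7.39 and 8.10 CPM (-1.84 ± 0.14, adjusted p = 1.19e-07), and Iglon5 fell from 34.2 to 10.3 and 15.7 CPM (-1.42). Cadm2, a binding partner of Cadm1, rose from 1 and 2 counts in control to between 50 and 98 (count ratio 47.1, 15.9 to 230).

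Of 28 other neural immunoglobulin adhesion genes, 12 rose and 9 fell. Hepacam, an astrocyte adhesion protein, rose from 0.819 to 88.1 CPM in sgMiat-6 cells and 68.6 CPM in sgMiat-96 cells (log2 difference 6.56 ± 0.19, adjusted p = 1.94e-11). It rose while 6 of the 7 tested astrocyte markers fell. Igsf3 rose from 1 and 2 counts to between 212 and 374 (count ratio 207, 70.5 to 1000). Kirrel2, a relative of nephrin, fell from 7.12 to 0.0992 and 0.257 CPM (-5.41 ± 0.38, adjusted p = 7.66e-08).

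Of 13 other receptor tyrosine phosphatases, 3 rose and 5 fell. Ptprt, which binds itself across cell contacts, rose from 0.487 to 9.94 and 7.61 CPM (4.14 ± 0.33). Its relative Ptprm fell from 96.3 and 95.8 CPM in the control libraries to means of 40.3 and 28.2 CPM (-1.51 ± 0.12), and Ptprn, a protein of secretory granules without phosphatase activity, rose from 10.9 to 27.6 and 31.5 CPM (1.43 ± 0.13). The ligands and cytoplasmic partners of the LAR-type phosphatases split 7 up and 6 down of 18. Slitrk6, of a family of postsynaptic ligands of Ptprd and Ptprs, rose from 0 and 1 counts to between 64 and 127 (count ratio 177, 31.5 to 7000). The heparan sulphate proteoglycan Sdc4 fell from 196 to 84.1 and 123 CPM (-0.95 ± 0.09), and Trio, a guanine nucleotide exchange factor that binds LAR, fell from 168 to 97.6 and 56.4 CPM (-1.18 ± 0.12).

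Of 8 tested contactin partners and ligands, 5 rose and 2 fell. Aplp1 and Aplp2, paralogues of the amyloid precursor protein (a contactin ligand), went in opposite directions. Aplp1 fell from 26.0 to 0.0510 CPM in sgMiat-6 cells and 0.828 CPM in sgMiat-96 cells (-6.90 ± 0.25, adjusted p = 1.83e-10), and Aplp2 rose from 854 to 2100 and 1950 CPM (1.24 ± 0.10). Tnc, the matrix glycoprotein tenascin C that binds contactin 1, fell from 2590 to 1500 and 714 CPM (-1.33 ± 0.10).

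In the list of St8sia sialyltransferases and NCAM signalling genes, all 7 tested genes changed, 2 up and 5 down, where 66.5% of all tested genes did. Gfra1, the GDNF coreceptor that works with NCAM, rose from 1 and 1 counts to between 77 and 96 (count ratio 89.4, 24.6 to 741). Fgfr1, a receptor that NCAM engages, fell from 420 to 226 and 213 CPM (-0.94 ± 0.09), and Sptbn1, the spectrin that holds NCAM to the membrane skeleton, fell from 489 to 276 and 168 CPM (-1.18 ± 0.10). Of 10 cytoplasmic partners and coreceptors of the L1 family, 2 rose and 5 fell. The ankyrin gene Ank2 had the smallest adjusted p of the genes named from the lists and fell from 252 to 13.7 and 7.35 CPM (-4.65 ± 0.10, adjusted p = 1.12e-12). Ezr, which links membrane proteins to actin, fell from 140 to 66.4 and 73.9 CPM (2.0-fold lower), and Nrp1, the semaphorin coreceptor that pairs with L1, fell from 47.4 to 24.4 and 14.5 CPM (-1.33).

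Of 13 cytoplasmic partners of Cadm1, 5 rose and 6 fell. The scaffold genes Dlg4 (106 to 41.0 and 33.8 CPM, -1.51) and Mpp2 (12.5 to 2.75 and 1.71 CPM, -2.52) fell, and Mpp1 rose (38.7 to 75.8 and 80.0 CPM, 1.01). Of the 6 proteases that shed adhesion molecules, 2 rose and 2 fell: Bace2 rose from 7.66 to 17.9 and 32.7 CPM (1.66) and Adam8 from 1.53 to 3.42 and 2.93 CPM (1.04), while Adam9 fell from 292 to 184 and 117 CPM (-0.99).

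**Figure D4:**
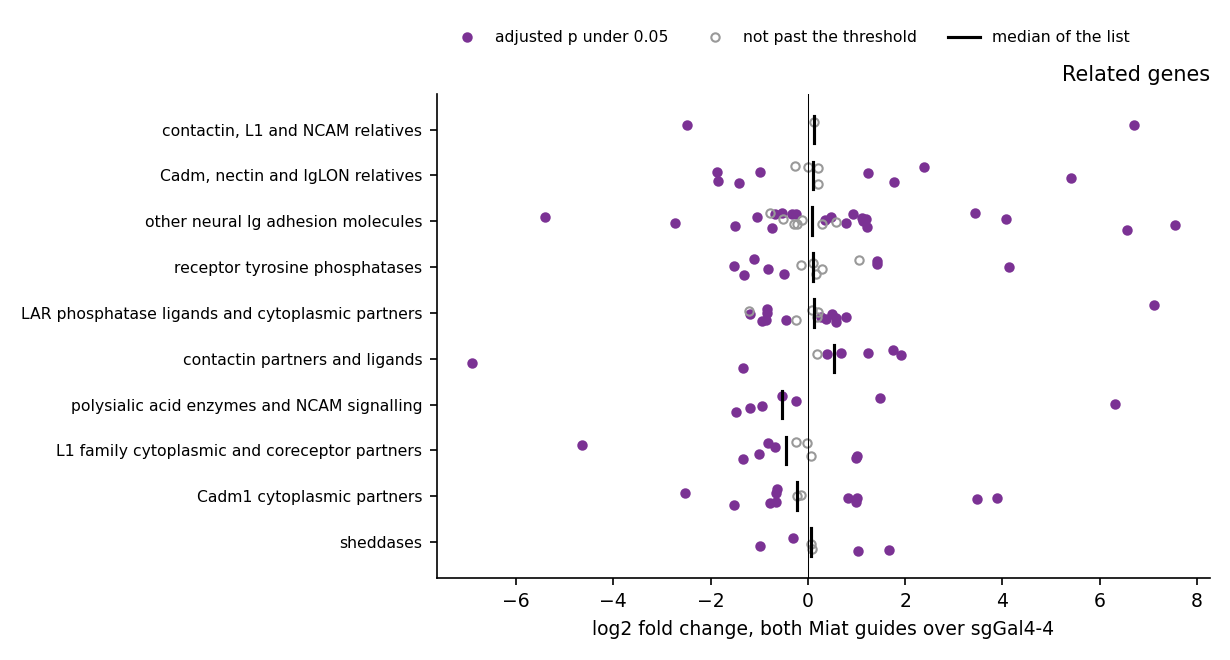
Log2 difference between both Miat guides and control for the 118 tested genes of the 10 related lists. Filled points have an adjusted p under 0.05, open points do not, and bars mark each list's median; points above 5 include genes with 0 to 3 control counts, whose fitted values are no bound. Each of the 10 lists holds genes on both sides of 0.

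Of the adhesion genes 3 lie on chromosome 9, in the order Thy1, Cadm1 and Ncam1, with 3.48 Mb and 1.64 Mb between them; the first 2 were higher and Ncam1 lower with the Miat guides. The nearest tested gene on each side of every adhesion gene was examined, 20 neighbours in all, among the 13153 of 13220 tested genes with a position. Of these 13 (65.0%) changed with the Miat guides, 7 up and 6 down, beside 66.5% of all tested genes. For the 8 tested adhesion genes, 8 of 16 neighbours changed in the same direction as the adhesion gene and 2 in the opposite direction. Of all tested genes 33.1% were higher and 33.4% lower, and the same split for neighbours of other genes was not computed. The contrast that chose the adhesion genes also set their directions, so nothing is read from this split. Beside Thy1, the nectin gene Pvrl1 (Nectin1) at 236 kb rose from 16.8 to 35.7 and 43.9 CPM (log2 difference 1.24 ± 0.12), and Usp2 at 18.4 kb rose by 0.32 on the log2 scale. Beside Cntn1, Pdzrn4 at 54.9 kb did not pass the threshold (0.28, adjusted p = 0.179, edgeR) and Lrrk2 fell (-2.19 ± 0.15).

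Beside Nrcam, Pnpla8 (-0.58) and Stxbp6 (-0.31) fell by much less than Nrcam itself (-4.10). Beside Ptprd the neighbours lie far off: Tmem261 at 663 kb (0.86) and Lurap1l at 2700 kb (0.94) rose. Beside Ncam1, Tmprss5 (-0.78) and Pts (0.18) did not pass the threshold, and beside Cadm1 Bud13 (0.17) did not and Nxpe4 fell (-1.08). Beside Chl1, the riser was Cntn3, and Trnt1 (-0.02) did not pass. Beside Ptprs, Kdm4b rose (0.48) and Safb2 (0.16) did not pass. Of the genes next to those below the filter, Nfasc by Cntn2 and Pdzd4 by L1cam fell (-2.49 and -0.46), Naa10 by L1cam rose (0.49), and Tmem81 by Cntn2 (0.36) did not pass.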

How the data were processed

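RNA-seq was read from 6 libraries, 2 for each of 3 guides, made from 1 µg of total RNA per the labels' protocols. The submitters' processing notes name STAR and the build GRCm38 (mm10); version, counter, annotation and strand setting: not given in the sources used here. The deposited files list a count, an FPKM and a TPM per RefSeq transcript, per the file headers. The deposited counts were tested, the authors' FPKM gave only transcript lengths and true zeros, and the authors' TPM was not used. Of 11223 rows whose FPKM was 0 in sgMiat-96 replicate 2, each stood at 1 count and was set to 0. The files hold 33984 rows for 24063 symbols (5261 with more than 1 row), and the row with the highest total was kept for each.

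Counts were fitted with edgeR 4.0.16 (R 4.3.3) after filterByExpr with a minimum count of 10 and TMM scaling, on 13220 genes in 3 groups, with 3 residual degrees of freedom, a quasi-likelihood test and a threshold of 0.05 on Benjamini-Hochberg adjusted p. A prior count of 0.125 entered fitted folds, and the biological coefficient of variation was 0.099. A group at 0 was set to a floor of 3 counts over the group, and with few counts the ratio has a 95% Clopper-Pearson interval; 3 counts in a library equal 0.149 to 0.173 CPM. Replicates differed by more than sampling noise (chi-square per gene 4.13, 19.1 and 14, where 1 is sampling noise alone). The adhesion genes and lists were chosen with earlier results of these data known. Named were the 10 adhesion genes, Miat, their nearest tested neighbours, and up to 3 genes per related list with the smallest adjusted p and at least 2 CPM; markers, Cntn3 and the genes overlapping Ncam1 and L1cam were named beside a result they touch. On simulated data with 12973 genes for sgMiat-96 against sgMiat-6, the test found 55.6%, 98.2% and 100.0% of the genes given a change of 1.5-, 2- and 4-fold, with 2 of 165 calls false. For both guides against control, with 12964 genes, it recovered 84.0%, 100.0% and 100.0%, with 11 of 198 calls false. The simulated counts had a single fixed spread and no length trend, and only 81, 57 and 62 genes, all above a minimum level, were changed. These rates therefore need not hold for the calls in the real libraries. Alternatives were DESeq2 1.42.0 (its size factors and its Wald test), total counts only, no filter, counts as listed, the longest row, a replicate block, each library left out and, added after the data were seen, a loess offset over transcript length (span 0.3) and a crossed block. Positions (12629 tested genes by symbol, 524 by accession) and exon joins come from GENCODE M21, and promoters from RefSeq.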

Additional observations from a re-analysis of the deposited data

Results flagged for a closer look

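In all, 3 adhesion genes differed between the 2 Miat guides by the test of that difference (edgeR's quasi-likelihood test). Nrcam had a log2 difference of sgMiat-96 from sgMiat-6 of -2.23, lower in 2 of 2 sgMiat-96 libraries than in both sgMiat-6 libraries. Thy1 had 0.79, higher in 2 of 2. Chl1 had -0.43, lower in 2 of 2, and its call was lost without sgMiat-6 replicate 1 (-0.16).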

How the results depend on the processing

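Between the Miat guides, 3 adhesion genes passed the threshold; with total counts only 6 did, with each library left out in turn 1 to 5, and with the replicate block 3. Over all genes, 4850 differed between the guides, 1124 without sgMiat-96 replicate 1 and 2253 without sgMiat-6 replicate 1. Removing the length trend turned the sign of 5 guide differences: Chl1 to 0.05, Ncam1 to 0.22, Cntn1 to 0.01, Ptprd to 0.13 and Ptprs to 0.24 (adjusted p = 0.0428, edgeR). Leaving out a control library moved Cntn1's fitted log2 difference from control between 6.37 and 10.98 and Thy1's between 6.54 and 9.22, since both rest on a few control reads. The 88 related genes past the threshold numbered 76 to 94 with a library left out and 83 with the replicate block. Replicate numbers did not pair libraries in the same order. Correlations of replicate differences were 0.06 (sgGal4-4 with sgMiat-6), -0.19 (sgGal4-4 with sgMiat-96) and -0.37 (sgMiat-6 with sgMiat-96). With the numbers of sgMiat-96 exchanged in the block, 3 adhesion genes passed between the guides and 93 related genes against control. Over all genes, 5757 (43.5%) then differed between the guides, beside 4850 (36.7%) without a block. Depth limits Cntn2 and L1cam, which had at most 10 counts in any library.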
